A study of Mus musculus with 4 samples.

Results

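The genes described here are those of the MHC class II presentation pathway: the chains of the class II molecules (H2-Aa, H2-Ab1, H2-Eb1), the invariant chain (Cd74), the peptide editor H2-DM (H2-DMa, H2-DMb1, H2-DMb2), its inhibitor H2-O (H2-Oa, H2-Ob) and the coactivator Ciita. They were taken by symbol from the gene count table, in which all 10 symbols occurred among 54532 genes. RNA was sequenced from alveolar macrophages (AMs), the resident phagocytes of the airspaces, from the lungs of female wild-type BALB/c mice. The control group was mice without tumor and the tumor group was mice that had been inoculated 2 weeks earlier with 4T1, a mouse mammary carcinoma line, in the mammary fat pad. Each group had 2 libraries, and no group carried a transgene or a deletion. The sources used here do not say whether a library came from a single mouse or from pooled mice, so the p-values below measure the spread between these libraries only, which may be technical.

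MHC class II molecules are pairs of an alpha and a beta chain that show peptides from ingested or endogenous proteins to CD4+ T cells. The invariant chain binds newly made pairs and guides them to endosomes, where proteases trim it to a short peptide called CLIP, H2-DM exchanges CLIP for other peptides, and H2-O restrains H2-DM. Transcription of these genes depends on Ciita, which does not bind DNA itself but is recruited by the factors RFX, CREB and NF-Y bound to conserved X and Y boxes in their promoters. B cells and dendritic cells (DCs) carry much class II, whereas AMs are known for low levels.

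The libraries held between 16167147 and 19205737 counts. The 14 AM identity genes summed to 19600 and 19730 CPM (counts scaled to library size, corrected by the trimmed mean of M values, TMM) in the control libraries and to 13590 and 13720 CPM in the tumor libraries, and all 14 were lower in the tumor group. Neutrophil, eosinophil and hepatocyte markers were higher in the tumor libraries. Neutrophil markers rose from 6.08 CPM in each control library to between 3597 and 3630 CPM. Eosinophil markers rose from at most 0.507 to at least 2204 CPM, and hepatocyte markers from at most 0.190 to at least 632.4 CPM. For microscopy the study isolated AMs as CD45+ CD11b- CD11c+ SiglecF+ cells, a gate that is set to leave out DCs, monocytes, eosinophils, neutrophils, B and T cells, alveolar type 2 cells and hepatocytes, but it does not state outright that the sequenced AMs went through the same gate. The part of these cells in the class II values was not tested. In bulk RNA, fewer cells of a type and less RNA per cell cannot be told apart.

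The promoters of 6 members are shown because they hold letters that resemble the X and Y boxes of class II promoters, in genes whose changes ranged widely. RefSeq windows on GRCm38.p6, reaching from 250 bases before to 50 bases after the gene start, were available for 7 of the 10 members. The search was for TGATTGG, the core of the Y box, preceded by AAC starting 26 to 29 bases upstream. The members' windows were searched on the gene's strand only. These letters and spacing were chosen after those windows had been read. Each stretch below is 57 bases long and runs 5′ to 3′ on the gene's strand, with the AAC and the TGATTGG in capitals.
H2-Aa: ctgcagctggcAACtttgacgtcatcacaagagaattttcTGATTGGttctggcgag
H2-Eb1: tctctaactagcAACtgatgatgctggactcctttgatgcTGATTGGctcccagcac
H2-DMb1: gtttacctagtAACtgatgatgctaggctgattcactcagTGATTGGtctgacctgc
H2-DMb2: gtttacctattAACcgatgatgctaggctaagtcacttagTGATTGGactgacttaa
H2-Oa: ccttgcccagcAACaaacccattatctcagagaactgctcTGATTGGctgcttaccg
H2-Ob: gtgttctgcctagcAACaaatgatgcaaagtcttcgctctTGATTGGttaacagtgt

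These stretches lie on chromosome 17. Their positions are chr17:34287857-34287913 on the minus strand for H2-Aa and, on the plus strand, chr17:34305766-34305822 for H2-Eb1, chr17:34153088-34153144 for H2-DMb1, chr17:34145117-34145173 for H2-DMb2, chr17:34092294-34092350 for H2-Oa and chr17:34238806-34238862 for H2-Ob. The TGATTGG began between 45 bases (H2-Oa) and 92 bases (H2-DMb2) before the RefSeq gene start. The distance from the start of AAC to the start of TGATTGG was 29 bases in H2-Aa, H2-DMb1, H2-DMb2 and H2-Oa, 28 bases in H2-Eb1 and 26 bases in H2-Ob. Among all 32851 mouse promoter windows of the same length, 7.82% held TGATTGG and 0.46% held the pair at this spacing. Both shares count either strand, a wider search than that of the members' windows. The H2-DMb1 and H2-DMb2 stretches were the same at 48 of 57 positions. The RefSeq starts of H2-DMb1 and H2-DMb2 lay 119 and 1942 bases inside the genes as the count table draws them. The 2 windows of H2-DMa lay at least 9664 bases from the table's start and held no such pair on the gene's strand. Such a match describes letters in a window and is not a measured binding site.

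**Figure D1:**
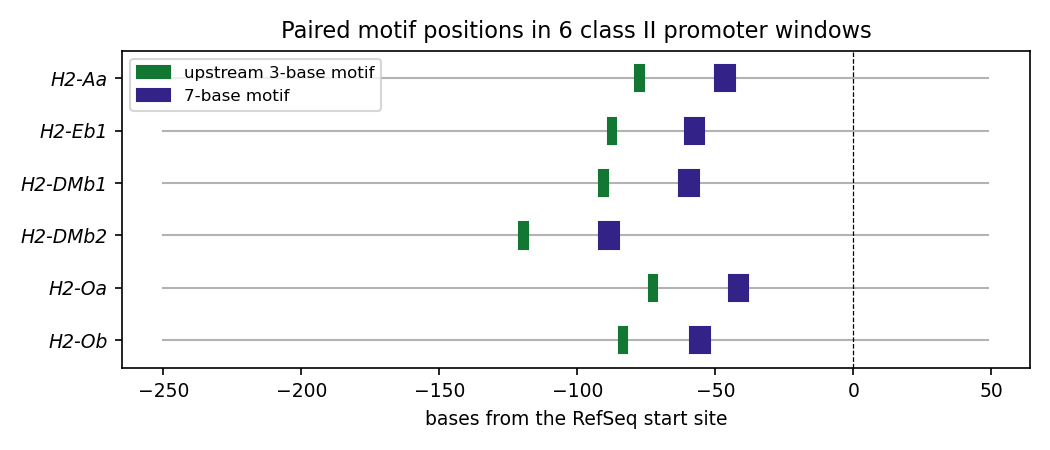
Positions of AAC (X box side) and TGATTGG (Y box) in the RefSeq promoter windows of 6 class II genes, with bases from the gene start on the horizontal axis and 1 gene per row. The TGATTGG begins 45 to 92 bases before the start in these genes, and the AAC lies 26 to 29 bases further upstream.

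Of the 10 members, 9 were higher in the tumor group and none was lower (edgeR quasi-likelihood test, adjusted p under 0.05), where 29.0% of the 14256 genes tested were higher and 24.8% were lower. At least a 2-fold rise with the same test was met by 8 members and by 12.9% of all genes tested. The median log2 fold change of the members was 1.52, beside 0.02 over all genes tested. Summed over the members, the level was 553.3 and 573.7 CPM in the control libraries and 1153 and 1207 CPM in the tumor libraries. H2-DMa, the alpha chain of the peptide editor, was the member whose level was not called different.

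**Figure D2:**
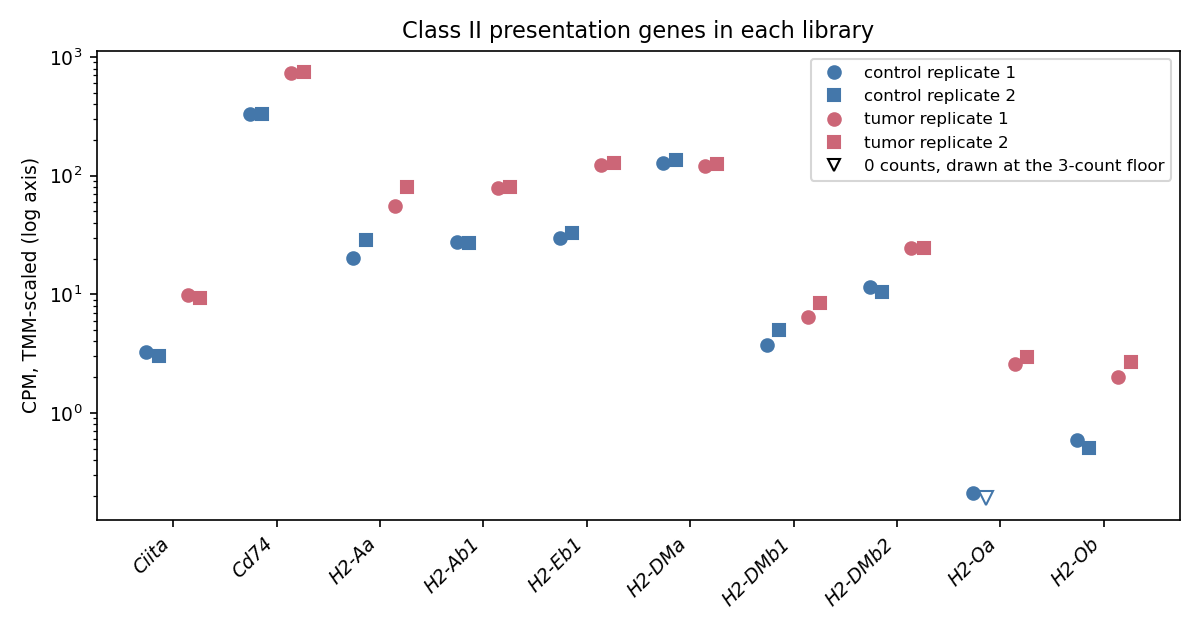
Level of each class II member in each library, as CPM on a log axis, with 1 point per library (2 control, 2 tumor). The tumor points lie above the control points for 9 genes, H2-DMa lies near 130 CPM in both groups, and H2-Oa had 0 reads in control replicate 2, drawn as an open triangle at the level of 3 reads.

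Ciita (ENSMUSG00000022504, chr16:10480059-10528418), the coactivator on which class II transcription depends, had 3.25 and 3.04 CPM in the control libraries and 9.87 and 9.22 CPM in the tumor libraries. Both tumor libraries lay above both control libraries, with little spread inside each group. The rise was 1.59 ± 0.18 on the log2 scale (SE, n = 2 per group; edgeR adjusted p = 1.58e-08), or 3.02-fold. These levels rest on 48 to 181 reads per library. Exons of Ciita overlap those of Dexi on the opposite strand over 329 bases, and whether the counting used strand is not given in the sources used here.

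Cd74 (ENSMUSG00000024610), the invariant chain, was the most abundant member in every library. It had 330 CPM in each control library and 730 and 747 CPM in the tumor libraries. The groups were far apart compared with the spread of their libraries, and the rise was 1.16 ± 0.03 on the log2 scale (SE, n = 2 per group; edgeR adjusted p = 1.39e-24), or 2.24-fold.

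The chains of the class II molecules themselves rose more than Cd74 in their point estimates. H2-Ab1 (ENSMUSG00000073421, chr17:34263209-34269418), the beta chain of the A molecule, had 27.4 and 27.2 CPM in the control libraries and 78.8 and 80.4 CPM in the tumor libraries. Its libraries were nearly equal inside each group, and it rose by 1.54 ± 0.07 on the log2 scale (edgeR adjusted p = 1.02e-17). H2-Aa (ENSMUSG00000036594, chr17:34282744-34287827), the alpha chain that pairs with it, had 20.3 and 28.6 CPM in the control libraries and 55.9 and 80.1 CPM in the tumor libraries. The groups of H2-Aa did not overlap, but replicate 2 was above replicate 1 in both groups, and the rise of 1.496 ± 0.123 on the log2 scale (edgeR adjusted p = 2.81e-11) therefore has a wider error than that of its partner.

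H2-Eb1 (ENSMUSG00000060586, chr17:34305877-34316199), the beta chain of the E molecule, had 29.8 and 33.1 CPM in the control libraries and 122 and 127 CPM in the tumor libraries. It rose by 1.99 ± 0.06 on the log2 scale (edgeR adjusted p = 1.96e-21), or 3.96-fold. The reference mouse strain C57BL/6 does not make the E alpha chain, whereas BALB/c mice do, and the annotation therefore lists the alpha gene as the pseudogene H2-Ea-ps. H2-Ea-ps, which is not among the 10 members, had 36.4 and 39.0 CPM in the control libraries and 139 and 142 CPM in the tumor libraries. It rose by 1.90 ± 0.05 on the log2 scale (edgeR adjusted p = 4.56e-22), or 3.74-fold. H2-Eb2, another E beta gene, had between 0 and 6 reads per library and was not tested.

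H2-DM showed different changes for its chains. H2-DMa (ENSMUSG00000037649, chr17:34135182-34139101) had 127 and 136 CPM in the control libraries and 121 and 126 CPM in the tumor libraries. The tumor libraries lay just below the control libraries, and the difference of -0.09 ± 0.04 on the log2 scale was not called (95% interval -0.17 to 0.00; edgeR adjusted p = 0.0934). That interval excludes a rise of the size seen in the A and E chains. H2-DMa was called higher, by 0.41 on the log2 scale, when the libraries were scaled on the AM identity genes, and called lower, by 0.15 and by 0.12, without control replicate 1 and without tumor replicate 2.

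H2-DMb1 (ENSMUSG00000079547, chr17:34153072-34160230), a beta chain of H2-DM, had 3.73 and 5.01 CPM in the control libraries and 6.47 and 8.41 CPM in the tumor libraries. It rose by 0.78 ± 0.19 on the log2 scale (edgeR adjusted p = 0.00118), the smallest rise among the 9, and it was not called against a change of 1.5-fold (adjusted p = 0.256). H2-DMb2 (ENSMUSG00000037548, chr17:34143307-34151553), the other beta chain, had 11.5 and 10.5 CPM in the control libraries and 24.7 CPM in each tumor library. It rose by 1.16 ± 0.11 on the log2 scale (edgeR adjusted p = 3.87e-10). Of the 50-base stretches in the transcripts, 22.7% of those of H2-DMb1 also occur in H2-DMb2, so reads could be split between them, and how the counting treated such reads is not given in the sources used here. The sum of both beta chains rose by 1.06 on the log2 scale (edgeR adjusted p = 1.22e-10).

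H2-O, which restrains H2-DM, was the rarest pair in the control libraries. H2-Oa (ENSMUSG00000024334, chr17:34092340-34095234) had 4 and 0 reads in the control libraries and 45 and 58 reads in the tumor libraries, or 0.213, 0, 2.60 and 2.96 CPM. Over the group totals, the ratio of tumor to control was 24.1 (95% counting interval 9.12 to 90.0), and edgeR gave an adjusted p of 9.11e-08. Without control replicate 1 the remaining control library had 0 reads, and the level in the tumor group was then at least 13.7-fold higher, measured against a floor of 3 reads in that library. Without control replicate 2 the fitted rise was smaller, 3.64 on the log2 scale beside 4.51 with all libraries. H2-Oa exons overlap those of BC051537 on the opposite strand over 321 bases.

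H2-Ob (ENSMUSG00000041538, chr17:34238903-34245907), the beta chain of H2-O, had 11 and 8 reads in the control libraries and 35 and 53 reads in the tumor libraries, or 0.587, 0.507, 2.02 and 2.70 CPM. The groups did not overlap, and the rise was 2.10 ± 0.40 on the log2 scale (edgeR adjusted p = 5.44e-05). H2-Oa and H2-Ob had the fewest reads of the members, and their sizes of change are the least precise among the members.

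Levels of different genes were compared as CPM per kilobase of the gene length given in the table, although BALB/c reads of these polymorphic genes may match the reference genome unequally. In the control libraries the order was Cd74 (233.9 ± 0.1 CPM per kilobase, SD, n = 2), H2-DMa (80.0 ± 4.0), H2-Eb1 (26.5 ± 2.0), H2-Ab1 (16.7 ± 0.1), H2-Aa (13.0 ± 3.1), H2-DMb2 (6.45 ± 0.42), H2-DMb1 (2.94 ± 0.61), Ciita (0.330 ± 0.016), H2-Ob (0.173 ± 0.018) and H2-Oa (0.0812 ± 0.1150). H2-Ob and H2-Oa were within their spread of each other. In the tumor libraries Cd74 again stood first at 523.6 ± 8.6 CPM per kilobase, and H2-Eb1 (104.8 ± 2.9) now stood above H2-DMa (75.3 ± 1.9). H2-Oa (2.11 ± 0.19) also stood above Ciita (1.002 ± 0.048) and H2-Ob (0.749 ± 0.152). H2-Ab1 (48.6 ± 0.7) and H2-Aa (36.3 ± 9.1) differed by little more than the spread of H2-Aa.

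Whether members changed unequally was tested by scaling each library on its H2-Ab1 count, so that each change is read relative to H2-Ab1 and does not depend on how the libraries were otherwise scaled. H2-Ab1 rose, so most genes changed less than it did, and 85.1% of all genes tested were called less and 7.10% more. Of the other 9 members, 2 changed more than H2-Ab1, 4 changed less and 3 were not called. H2-Eb1 changed more by 0.44 ± 0.06 on the log2 scale (edgeR adjusted p = 2.33e-07), and H2-Oa by 3.01 ± 0.63 (adjusted p = 6.66e-05), the latter from its 4 control reads. Cd74 changed less by -0.38 ± 0.03 (adjusted p = 1.3e-12).

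All 3 genes of the peptide editor also changed less than H2-Ab1, a count near the 85.1% of all genes tested that did so. The difference was -1.63 ± 0.05 on the log2 scale for H2-DMa (edgeR adjusted p = 2.05e-23), -0.76 ± 0.20 for H2-DMb1 (adjusted p = 0.000851) and -0.38 ± 0.11 for H2-DMb2 (adjusted p = 0.00232). The differences of H2-Aa (-0.05, 95% interval -0.30 to 0.20), Ciita (0.05, interval -0.33 to 0.44) and H2-Ob (0.56, interval -0.29 to 1.42) were not called. Those intervals still allow sizeable differences for Ciita and H2-Ob.

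**Figure D3:**
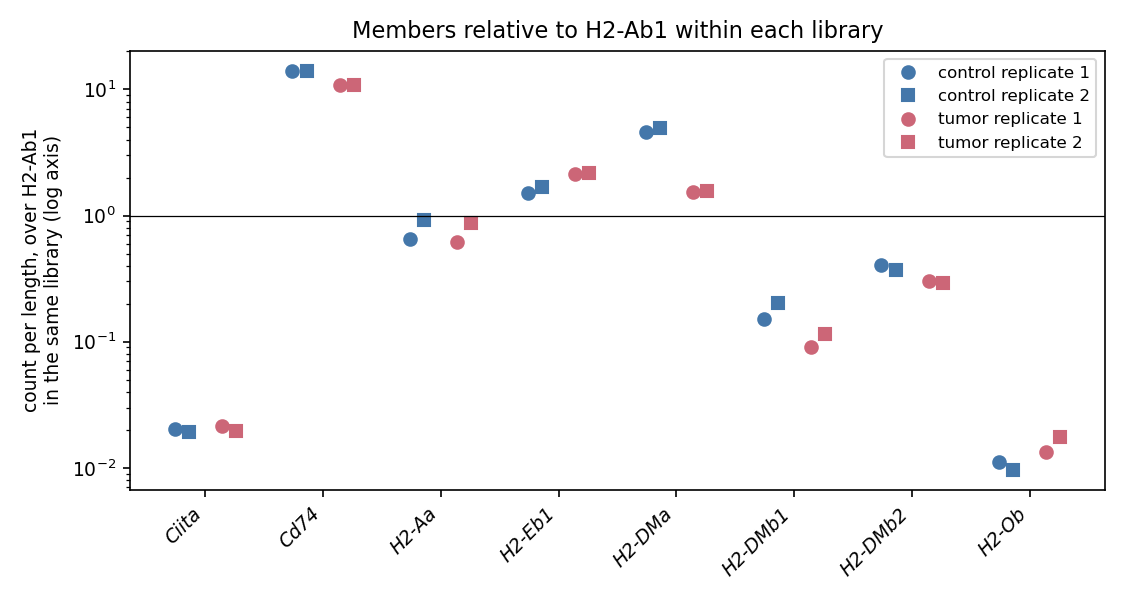
Count per length of 8 class II members over that of H2-Ab1 in the same library, on a log axis, with 1 point per library (2 control, 2 tumor) and a line at equal level; H2-Oa, with 0 reads in a control library, is not drawn. The tumor points of H2-Eb1 lie above its control points (2.14 and 2.18 against 1.5 and 1.68), those of Cd74, H2-DMa, H2-DMb1 and H2-DMb2 lie below, those of H2-Ob lie above on few reads, and those of H2-Aa and Ciita overlap.

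The same comparisons were made as ratios of CPM per kilobase inside each library, for 6 pairs. With 2 libraries against 2, the smallest p an exact two-sided permutation test can give is 0.333, so no ratio could pass. The ratio of H2-Eb1 to H2-Ab1 was 1.5 and 1.68 without tumor and 2.14 and 2.18 with tumor (exact permutation p = 0.333). The ratio of Cd74 to H2-Ab1 was 14.0 and 14.1 without tumor and 10.8 in each library with tumor, so there was less invariant chain RNA per beta chain RNA in the tumor group (exact permutation p = 0.333). That of H2-Aa to H2-Ab1 was 0.647 and 0.916 without tumor and 0.620 and 0.870 with tumor, with the groups overlapping (exact permutation p = 0.667).

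Within H2-DM, the ratio of H2-DMa to H2-DMb1 was 30.7 and 24.6 without tumor and 17 and 13.5 with tumor (exact permutation p = 0.333). The ratio of H2-DMb1 to H2-DMb2 overlapped between the groups, at 0.373 and 0.548 against 0.301 and 0.393 (exact permutation p = 0.667). The ratio of the editor to its inhibitor, H2-DMa to H2-Oa, was 37.4 and 34.1 in the tumor libraries. It was 475 in control replicate 1 and could not be formed in control replicate 2, where H2-Oa had no reads.

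The other genes of the pathway moved in both directions. Of 28 such genes in 5 lists, which include H2-Ea-ps, 26 were tested, of which 9 were higher and 14 lower, beside 29.0% and 24.8% of all genes tested, and their median log2 fold change was -0.14. When the libraries were scaled on the AM identity genes, 22 were higher and 2 (Prdm1 and Cd83) lower, with Rfx5 and Nfya not called. That scaling moved the median of all genes tested from 0.02 to 0.51 on the log2 scale, and under it the median of the members was 2.01 with 10 of 10 higher. It called 10674 of the 14256 genes tested in either direction, so most genes were called under it. The counts of 22 and of 10 are to be read beside that background.

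Among the 7 promoter factors, which bind the X and Y boxes, 2 were higher, 3 were lower and 2 were not called. These counts depended on scaling, with 5 higher and 0 lower under AM identity scaling. With total counts as library sizes 2 were higher and 2 lower. Rfxap, a subunit of the RFX complex, rose from 6.84 to 12.9 CPM (0.91 ± 0.15 on the log2 scale, edgeR adjusted p = 5.05e-06), and Nfyb of NF-Y rose by 0.55 ± 0.12. Rfx5, the DNA-binding subunit of RFX, fell from 20.1 to 12.9 CPM (-0.65 ± 0.12, adjusted p = 2.75e-05), and Nfya fell by 0.45 from 122.7 CPM.

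Of the 9 tested inducers and repressors of Ciita, 5 were higher and 4 lower. Interferon gamma, the classical inducer of Ciita in macrophages, had 0 reads in 3 libraries and 1 read in tumor replicate 2. Its receptor chain Ifngr1 rose from 156.9 to 284.7 CPM (0.86 ± 0.03 on the log2 scale, edgeR adjusted p = 1.57e-18) and the kinase Jak2 from 55.8 to 139.1 CPM (1.32 ± 0.05, adjusted p = 2.68e-19). Socs1, a feedback inhibitor of this signalling, had 25 and 12 reads without tumor and 47 and 51 with tumor (1.31 ± 0.33, adjusted p = 0.00137). Irf1 and Irf8, transcription factors of the interferon response, fell by 0.16 and 0.14 on the log2 scale, but they were picked out after their values had been seen, were not called with total counts as library sizes and were called higher with AM identity scaling. Prdm1, a repressor of Ciita in plasma cells, fell from 423.1 to 273.1 CPM (-0.63 ± 0.03, adjusted p = 5.43e-16), and was still called lower with AM identity scaling, at a much smaller -0.14.

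Of the 6 genes that digest antigen and the invariant chain in endosomes, 5 were lower and none higher, with AM identity scaling turning all 6 to higher. Ctsb and Ctsd, which encode cathepsins, fell by 0.42 and 0.37 on the log2 scale, and Lgmn fell by 0.23. Ctss, the protease that makes the last cuts of the invariant chain, went from a mean of 2580 CPM without tumor to 2270 CPM with tumor (-0.18, edgeR adjusted p = 1.13e-10). Of the genes for turnover of class II at the surface, March1, a ubiquitin ligase for class II, rose by 0.40 on the log2 scale (adjusted p = 8.59e-07). March8, another such ligase, fell by 0.22 (adjusted p = 0.000921) and was called higher, at 0.27, with AM identity scaling. Cd83, which opposes that ligase, fell from 423.6 to 175.7 CPM (-1.27 ± 0.03, adjusted p = 1.6e-23) and stayed lower under the scalings tried, at -0.77 with AM identity scaling.

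**Figure D4:**
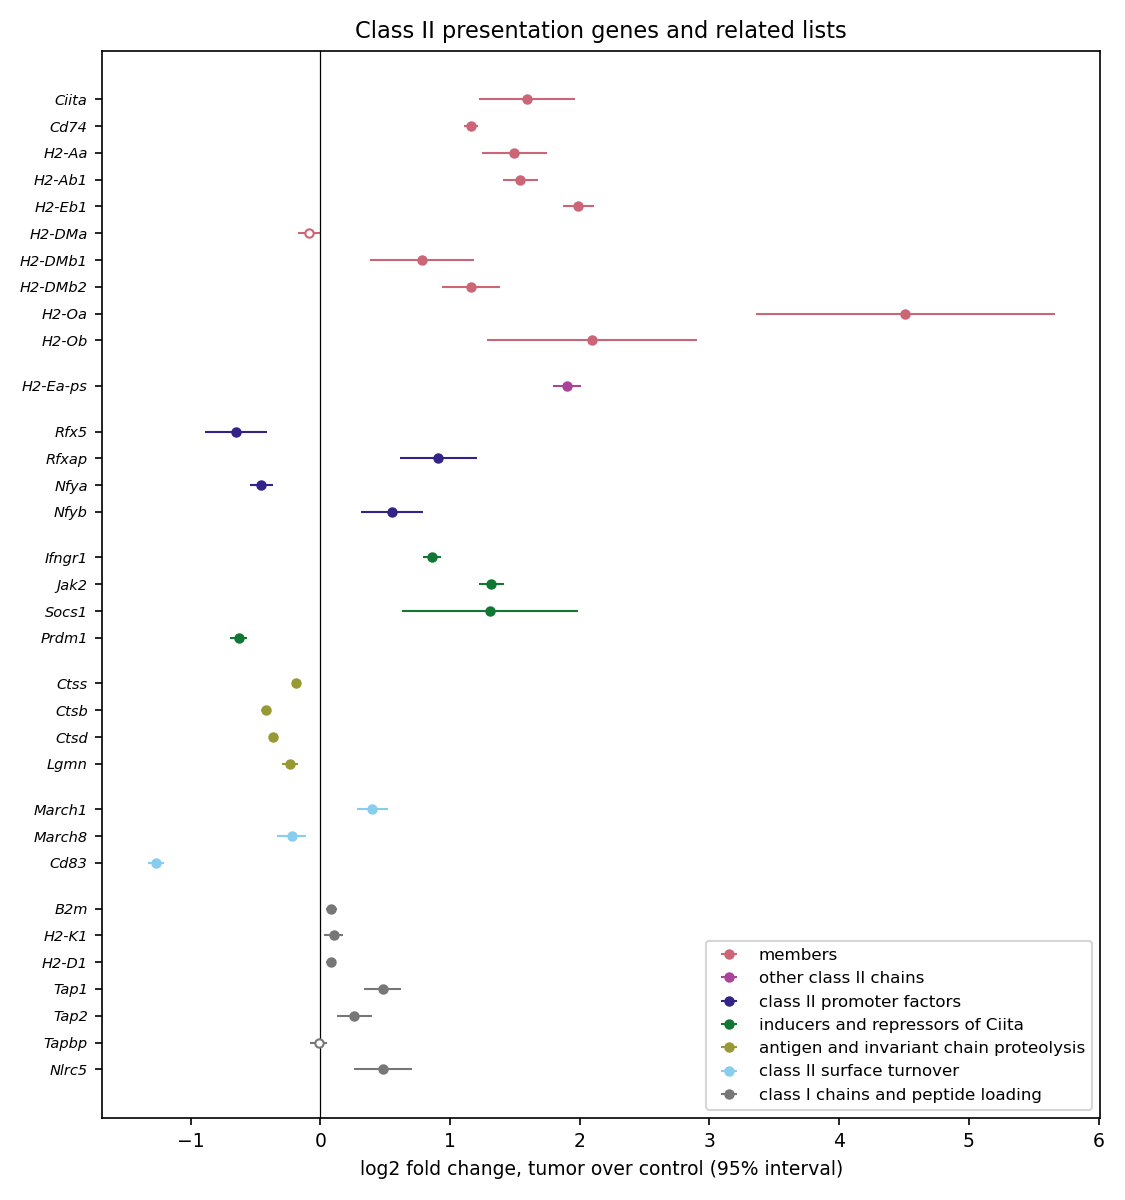
Log2 fold change, tumor against control, of each class II member and of the 4 genes of largest change in each other list of the pathway (all tested where fewer) and of 7 genes of class I presentation, grouped by list, with 1 point per gene, bars for the 95% interval and open points where no change was called. The members other than H2-DMa lie between 0.78 and 4.51, whereas the class I genes lie between -0.01 and 0.48.

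The class I pathway, which shows peptides from the cytosol to CD8+ T cells, served as the nearest comparison. Of its 7 genes, 6 were higher and none lower, beside 29.0% and 24.8% of all genes tested. None reached a 2-fold rise, which 12.9% of all genes tested did, and the median log2 fold change was 0.10. The values ranged from -0.01 for Tapbp, a loading factor that was not called, to 0.48 for Nlrc5, the coactivator of class I genes and a relative of Ciita. With AM identity scaling, 7 of 7 were higher and the median was 0.60, beside 2.01 for the class II members and 0.51 for all genes tested. That scaling called 10674 of the 14256 genes tested in either direction, so the class I values lay near the background. Relative to H2-Ab1, all 7 changed less, from -1.06 for Nlrc5 (edgeR adjusted p = 6.74e-10) to -1.56 for Tapbp, where 85.1% of all genes tested changed less, so this count is near the background.

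Of the members, 8 lie within 224 kb of chromosome 17 (chr17:34092340-34316199, coordinates of the table). In the same interval 5 other genes were tested, a set chosen after the data had been seen, and their median log2 fold change was 0.13. Tap1 and Tap2, which pump peptides for class I, rose by 0.48 and 0.26 on the log2 scale. The immunoproteasome subunits Psmb9 (0.13, edgeR adjusted p = 0.228) and Psmb8 (0.08, adjusted p = 0.254) were not called, and Brd2, a chromatin reader, fell by 0.64 (adjusted p = 3.76e-19). With AM identity scaling Brd2 was at -0.15, and Psmb9 and Psmb8 were called higher by 0.63 and 0.58. Psmb8 was also called higher, by 0.15, with total counts as library sizes.

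Cell types that carry much class II were followed by their own markers. Of 9 DC markers, 5 were higher, 1 lower and 3 not called, and their sum was 21.1 and 21.4 CPM in the control libraries and 80.1 and 74.8 CPM in the tumor libraries. Cd209a rose from 0.832 to 13.5 CPM, Ccr7 from 2.70 to 13.3 CPM, Flt3 from 0.398 to 4.11 CPM, Itgae from 0.715 to 6.56 CPM and Ccl22 from 7.30 to 33.0 CPM. Clec9a fell from 5.20 to 2.34 CPM, and Zbtb46, Xcr1 and Siglech were not called.

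Of 8 B cell markers, 6 were tested and 4 were higher, with Ms4a1 from 1.19 to 2.97 CPM, Cd79a from 1.22 to 2.67 CPM and Cd79b from 1.014 to 2.69 CPM, and Pax5 and Fcer2a were not called. The sum of the list was 7.10 and 8.30 CPM in the control libraries and 13.9 and 14.5 CPM in the tumor libraries. Of 6 T cell markers, 5 were tested and 3 were higher, with sums of 3.89 and 4.50 CPM for control against 13.3 and 14.5 CPM for tumor. Monocyte and interstitial macrophage markers summed to 40.9 and 41.1 CPM for control against 36.8 and 39.4 CPM for tumor, a sum that joined opposite changes. The monocyte markers Ccr2 and Ly6c2 rose, from 5.86 to 14.9 CPM and from 0.275 to 1.45 CPM. Cx3cr1 and the complement genes C1qa, C1qb and C1qc fell, C1qa from 10.1 to 5.52 CPM, and Ms4a7 was not called. Of the alveolar type 2 cell markers, of cells that carry class II too, 5 were tested, 3 were lower and none was higher. Abca3 made up nearly all of that list's sum, at 213.2 CPM without tumor and 186.2 CPM with tumor, and the other markers of the list had means of at most 3.32 CPM in either group. Sftpb and Sftpa1 fell by 0.89 and 0.99 on the log2 scale, and Sftpc (0.46) and Slc34a2 (1.18) were not called. With AM identity scaling Abca3, Sftpc and Slc34a2 were called higher and Sftpb and Sftpa1 were not called. No marker in these lists was at or under 3 reads in all 4 libraries. The 5 DC, 4 B cell, 3 T cell and 2 monocyte markers that were higher moved in the direction of the class II members. The other markers of these lists were lower, not called or not tested. The part of these cell types in the rise of the class II members was not tested.

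**Figure D5:**
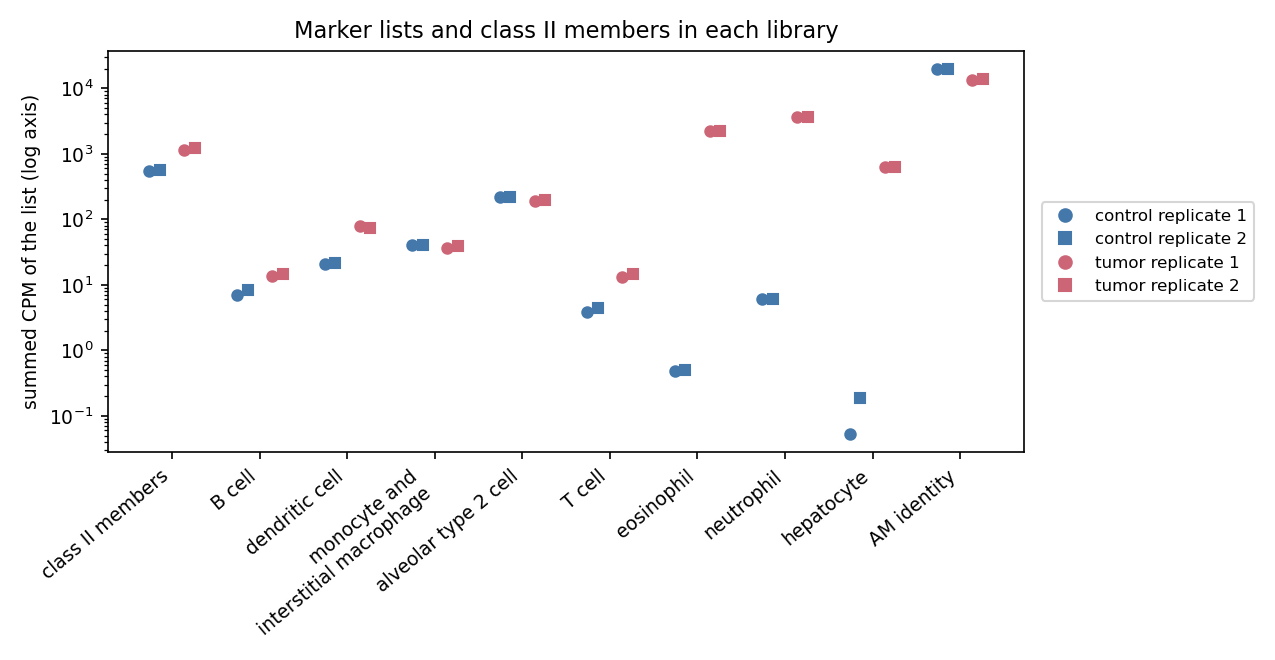
Summed CPM of the class II members and of each marker list in each library, on a log axis. The DC, B cell, T cell, eosinophil, neutrophil and hepatocyte lists are higher in the 2 tumor libraries, and the AM identity list is lower there (13590 and 13720 against 19600 and 19730 CPM).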

How the data were processed

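The count table holds raw read counts per gene, which the authors deposited for 4 libraries of AM RNA. Per the study's methods, RNA was extracted with TRIzol, libraries were made with the NEBNext Ultra kit, and reads were aligned with HISAT2 (2.0.5 per the submitters' processing notes) and counted with featureCounts. No genome build, annotation release or strand setting, and no rule for multi-mapping reads, is given in the sources used here. The deposited gene length column has no stated unit and was read as bases. Coordinates were equal to those of GENCODE release M21 (GRCm38) for 98.3% of the 54409 shared genes, but for only 3 of the 10 members (H2-DMb1, H2-Oa and Ciita), so coordinates are given as in the table. Comparisons by the authors, if any, were not used.

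From these counts, genes were kept with the default filter of edgeR 4.0.16 (minimum count 10; R 4.3.3), which left 14256 of 54532 genes and all 10 members. Libraries were scaled by TMM, and tumor was compared with control by edgeR's quasi-likelihood test with Benjamini-Hochberg adjustment over all genes tested. CPM values use the TMM-scaled library sizes. The residual degrees of freedom were 2. Totals ranged from 16167147 to 19205737 counts, and 3 reads corresponded to between 0.153 and 0.190 CPM. Counting intervals cover counting error only. The test relative to H2-Ab1 used the same model with the H2-Ab1 count as the library scale, in which the counting error of H2-Ab1 itself is not included. Alternatives were DESeq2 1.42.0, limma-voom (limma 3.58.1), other scalings and filters, a test against 1.5-fold, removal of the 20 highest genes, a replicate block and leaving out each library; where this left 1 library in a group, that library was assumed to vary like the other group. The scripts were tested on simulated data.

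The members and gene lists were chosen with earlier results of these data known. Genes named by rule were the members, up to 4 genes of largest change in each list and any at the floor of 3 reads, the markers, and the 5 genes with the profile nearest to the A and E chains. Irf1, Irf8, Brd2, Psmb8 and Psmb9 were named after their values had been seen, and of the hepatocyte list 1 symbol was not in the table. Promoter stretches are from RefSeq on GRCm38.p6. The motif spacing and the gap between replicates were looked at after the data had been seen. Values of some listed genes are not reported here; the list counts and sums include them.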

Additional observations from a re-analysis of the deposited data

How the results depend on the processing

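The 9 higher members stayed positive in 141 of 141 refitted values, and 140 kept their call; the exception was H2-DMb1 against 1.5-fold (adjusted p = 0.256). The count of higher members was 9 and ranged from 7, where at least 10 reads in every library were required and H2-Oa and H2-Ob were not tested, to 10 with scaling on the AM identity genes. H2-DMa turned to 0.41 on the log2 scale with that scaling. The count of lower members ranged from 0 to 1 when 1 library was left out, the 1 being H2-DMa without control replicate 1 or without tumor replicate 2. Of the other pathway genes, 9 were higher and 14 lower. These counts became 22 and 2 with AM identity scaling, which by its construction raises each tumor value, and 5 and 1 against 1.5-fold, a stricter test. With Cd74 in place of H2-Ab1 as the reference, 6 members changed more and 1 changed less, where H2-Ab1 gave 2 and 4, since Cd74 itself rose less. Over all genes tested, the deviations of replicate 1 from its group mean correlated at -0.003 between the groups. That is a value over all genes and does not test a subset of them. With a replicate block 9 members were higher and 0 lower. H2-Oa was at 3.64 on the log2 scale without control replicate 2, and without control replicate 1, where the remaining control library had 0 reads, only the bound of at least 13.7-fold higher can be given. Depth limits H2-Oa and H2-Ob, which rest on under 60 reads in each library, and 2 libraries per group limit the rest.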

Other observations

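The 5 other genes whose profile over the 4 libraries lay nearest, in Euclidean distance on the centred log2 CPM scale, to the mean profile of H2-Aa, H2-Ab1 and H2-Eb1 were Ptprcap (distance 0.086, log2 fold change 1.78), Cuedc1 (0.0996 and 1.80), E2f8 (0.104 and 1.64), Ctla4 (0.110 and 1.76) and Fbxo31 (0.115 and 1.76). Ptprcap, which associates with the phosphatase CD45, and Ctla4, an inhibitory receptor, are known from lymphocytes. With 4 libraries in 2 groups, such a likeness reflects little more than the size of the group difference.

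H2-Aa differed between replicates of the same group by as much in both groups. On the log2 CPM scale, replicate 2 was above replicate 1 by 0.49 in the control and by 0.52 in the tumor group. Among 9560 genes with a mean of at least 100 reads, 3 genes, H2-Aa included, had replicate 2 higher by at least as much in both groups. Replicate 1 was higher by as much in 5 genes, and 2 genes had gaps as large but opposite between the groups. H2-DMb1 had gaps of 0.41 and 0.37 in the same direction, whereas the gaps were -0.01 and 0.03 for H2-Ab1 and 0.00 and 0.03 for Cd74. The replicate numbers are not said to mark a shared batch, and the cause was not tested.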
